A study of Mus musculus with 6 samples.

Results

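Cadherins, protocadherins, Fat, Dachsous and Celsr genes were followed in RNA bound to tagged ribosomes of mouse parvalbumin neurons, a fast-spiking class of cortical inhibitory interneuron. Members were the gene symbols of these families that reached at least 1 CPM (counts scaled to library size) in at least 2 of 4 libraries. Of 23306 rows in the table, 102 carried such a symbol and 89 reached the minimum. The knockout libraries came from male C57BL6 mice with a conditional deletion of Fxr1, an RNA-binding protein gene of the fragile X family, made with PV-Cre. The wild type libraries came from male C57BL6 mice without that deletion, and the labels describe PV-Cre::RiboTag animals, a cross of a parvalbumin-driven Cre line with RPL22HA/WT mice, for the study as a whole. Cre driven by the parvalbumin promoter tags the ribosomal protein Rpl22 with haemagglutinin, so both the tag and the deletion depend on cells that have expressed this Cre. The tissue was frontal cortex, no age is given in the sources used here, and of 3 libraries per genotype, knockout 1 and 3 and wild type 2 and 3 were analysed.

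Cadherins are calcium-dependent adhesion proteins whose extracellular repeats bind, most often, the same cadherin on the facing cell. Classical cadherins hold synapses and junctions together through catenins, while delta protocadherins recruit actin regulators and are used for sorting axons and cell groups. Clustered protocadherins are made from tandem arrays of promoters of which each neuron uses a few, giving cells an identity by which sister branches avoid each other. Fat and Dachsous proteins are very large cadherins that bind one another across cell borders and act in planar polarity and in the Hippo growth pathway, and Celsr proteins are seven-pass cadherins of the planar polarity pathway with roles in axon guidance.

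The Fxr1 transcript was lower in both libraries labelled knockout, at 17.8 and 18.7 CPM, against 98.4 and 100.6 CPM in wild type. The knockout mean was 18.3% of the wild type mean (log2 fold change -2.45 with SE 0.10; edgeR quasi-likelihood test, adjusted p = 1.77e-15). The libraries held between 9696126 and 10301280 counts. The interneuron enzyme gene Gad1 stood at 4245 and 4048 CPM in knockout and 4354 and 4295 CPM in wild type, and Pvalb at 248 and 241 CPM in knockout and 262 and 264 CPM in wild type. Markers of excitatory neurons and glia were present as well, with a summed 609 and 710 CPM for 6 astrocyte genes in knockout and 663 and 631 CPM in wild type. The 7 excitatory neuron genes summed to 999 and 1034 CPM in knockout and 1047 and 948 CPM in wild type. No input fraction was analysed here, so the share of any level that came from parvalbumin neurons was not tested. By chi-square per degree of freedom over genes, closeness of the libraries followed genotype only in part. Knockout 3 and wild type 3 differed least (3.02), followed by the 2 wild type libraries (3.68). Knockout 1 was nearer to wild type 2 (4.02) than to knockout 3, and the 2 knockout libraries differed most of all pairs (6.35). Fewer cells of a type and less RNA per cell cannot be told apart in such libraries. Nothing in the labels says that the libraries are separate animals, and the p-values are therefore relative to a spread between libraries that may be technical.

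Fat4, Pcdh10 and Pcdh18 are the 3 members closest to Fxr1 on its own chromosome, 3 (34019943 to 34070322, mm10), and Fat4 had the smallest p of all members. Fat4 (38886940 to 39011985, plus strand) lies 4.82 Mb from Fxr1, Pcdh10 11.31 Mb and Pcdh18 15.67 Mb, and Celsr2 lies on the same chromosome 74.32 Mb away. The windows around their starts are shown because they mark where these neighbours of the deleted gene begin; each holds 250 bases before and 50 bases after the start, from RefSeq on GRCm38.p6. Capitals mark the GC box, GGGCGG, searched on both strands (CCGCCC on the other).
Fat4, chr3:38886690-38886989, plus strand: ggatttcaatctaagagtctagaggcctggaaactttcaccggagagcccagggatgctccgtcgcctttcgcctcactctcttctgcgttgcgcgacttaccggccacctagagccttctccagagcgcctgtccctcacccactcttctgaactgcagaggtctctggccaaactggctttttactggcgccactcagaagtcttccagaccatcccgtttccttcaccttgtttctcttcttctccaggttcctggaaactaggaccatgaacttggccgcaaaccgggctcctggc
Pcdh10, chr3:45378148-45378447, plus strand: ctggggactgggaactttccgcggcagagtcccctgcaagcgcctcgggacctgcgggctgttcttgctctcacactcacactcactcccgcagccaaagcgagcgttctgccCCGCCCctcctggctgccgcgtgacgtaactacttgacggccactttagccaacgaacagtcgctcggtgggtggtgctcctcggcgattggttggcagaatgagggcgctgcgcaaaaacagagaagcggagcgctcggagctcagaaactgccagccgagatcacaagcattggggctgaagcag
Pcdh18, chr3:49757267-49757566, minus strand: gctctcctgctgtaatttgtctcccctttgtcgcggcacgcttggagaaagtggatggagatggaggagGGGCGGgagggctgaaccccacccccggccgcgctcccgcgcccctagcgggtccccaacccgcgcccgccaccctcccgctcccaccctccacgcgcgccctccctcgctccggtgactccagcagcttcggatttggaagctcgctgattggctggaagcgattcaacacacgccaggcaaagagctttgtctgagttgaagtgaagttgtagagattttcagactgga

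The Pcdh10 and Pcdh18 windows each held 1 GC box and the Fat4 window none. In all, 23 members off the chromosome of the clustered genes had a window in this reference, and 8 of them (34.8%) held a GC box, against 35.9% of the windows of 27025 genes. Only the first listed window of each gene was used, which need not be at its outermost start. The Pcdh15 window begins at 73821617 on chromosome 10, while the annotated gene begins at 73099342. The windows of Cdh12, Cdh18 and Fat1 also lie inside the annotated gene. The TATAAA letters, searched on both strands, occurred in 2 member windows (8.70%), those of Pcdh8 and Pcdh15, against 14.2% of all windows. Median GC content was 60.3% in the member windows and 52.7% in all windows, with a median of 18 and 7 CpG pairs. The Fat4 window, at 55.7% GC and 13 CpG pairs, lay between these medians, and that of Celsr2, at 76.3% GC and 40 CpG pairs, stood above both. The members had passed the minimum of 1 CPM, while the 27025 genes were not filtered by level. The 2 sets are therefore unlike, and a difference between them cannot be credited to the family. The letters describe the windows and say nothing of factor binding.

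Delta protocadherins and clustered protocadherins made up most of the family's summed transcript level in these pull-downs. Levels between genes are compared as CPM per kilobase of annotated exon, averaged over the 4 libraries (± SD, n = 4). On this scale delta protocadherins held 34.2% of the summed level of the members, clustered protocadherins 31.0%, classical and T-cadherins 19.7%, Celsr genes 9.70%, Fat and Dachsous genes 4.80%, and Pcdh15 and Pcdh20 together 0.592%. The order of the first 2 classes depended on how length is counted: with exons shared between clustered isoforms left out of their length, clustered protocadherins held 41.2% and delta protocadherins 29.1%. All members together took 0.413% and 0.431% of counts in the knockout libraries and 0.432% and 0.430% in the wild type libraries.

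Pcdh9 stood highest on this scale at 55.7 ± 2.18 CPM per kilobase, followed by Celsr2 at 44.1 ± 3.50. Pcdh7 at 34.5 ± 1.14 and Pcdh10 at 33.7 ± 1.32 did not differ beyond their spread, and Pcdhac2 followed at 29.6 ± 1.80. Pcdh9, Pcdh7 and Pcdh10 are delta protocadherins, and Pcdh10 is known to recruit the WAVE actin regulator to cell contacts. The lead of Pcdh9 was not kept with the longest transcript as length, where Pcdh10 stood at 65.1 ± 2.55, Pcdh9 at 58.0 ± 2.26, Celsr2 at 47.9 ± 3.80 and Pcdh7 at 41.7 ± 1.38 CPM per kilobase. Nor was it kept per kilobase of unshared exon, where Pcdhac2 stood at 57.5 ± 3.51 and Pcdh9 at 55.7 ± 2.18, which did not differ beyond their spread. Pcdh17, another WAVE-binding protocadherin, stood at 18.2 ± 2.06 CPM per kilobase of annotated exon, Pcdh1 at 13.1 ± 0.306 and Pcdh8, whose protein is taken up with N-cadherin after neuronal activity, at 7.56 ± 1.87.

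**Figure D1:**
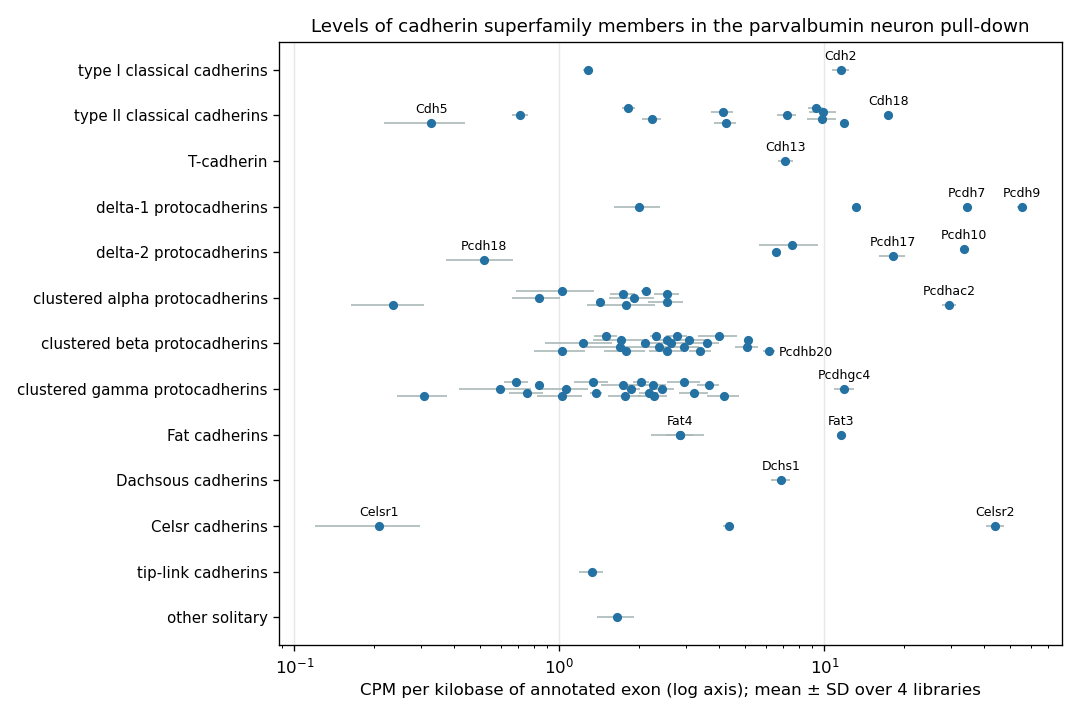
Mean CPM per kilobase of annotated exon over 4 libraries (log axis, bars ± SD) for the members with a length, by subfamily. Pcdh9 and Celsr2 lie furthest right at 55.7 and 44.1, and Fat4 and Fat1 coincide at 2.86.

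Among classical cadherins the 12 type II members together held 15.7% of the summed level per kilobase, against 2.55% for the 2 type I members. The median per member was 5.72 CPM per kilobase for type II and 6.40 for type I, so the larger share came with more genes. Of 13 type II symbols, 12 were at or above the minimum. Type II cadherins sort neurons by graded binding between related members. Cdh18 led at 17.4 ± 0.622 CPM per kilobase of annotated exon, then Cdh7 at 11.9 ± 0.451 and Cdh12 at 9.90 ± 1.15. Cdh2, which encodes N-cadherin of synaptic junctions, stood at 11.5 ± 0.809, within the spread of Cdh7. Cdh4, or R-cadherin, stood at 1.28 ± 0.0474, and Cdh13, the lipid-anchored T-cadherin, at 7.13 ± 0.466. Cdh5, the endothelial VE-cadherin, had 0.885 and 1.56 CPM in knockout and 1.13 and 1.94 CPM in wild type, so the rule kept it narrowly.

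Fat3 was the most abundant Fat gene, at 11.6 ± 0.322 CPM per kilobase of annotated exon. Fat3 is known for setting the polarity of retinal amacrine neurons. Dchs1, which encodes a binding partner of Fat4, stood at 6.87 ± 0.572, above Fat4 at 2.86 ± 0.653 and Fat1 at 2.86 ± 0.340, which did not differ beyond their spread. Celsr3, needed for major axon tracts of the forebrain, stood at 4.35 ± 0.207, well below Celsr2, and Celsr1, the member known from epithelial polarity, at 0.208 ± 0.0889. Pcdh15, a tip-link protein of hair cells, stood at 1.32 ± 0.133 and Pcdh20 at 1.64 ± 0.262. Dchs2 was not analysed here.

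The clustered genes were measured nearly completely: 13 of 15 alpha symbols, 21 of 22 beta symbols and 22 of 22 gamma symbols were members. The alpha and gamma isoforms each join their own variable exon to constant exons common to the cluster, and neighbouring isoforms are near-identical in places, so the split of reads between them is uncertain. How reads on shared exons were counted is not given in the sources used here. Pcdha4 and the overlapping entry Pcdha4-g were listed at 0 in all 4 libraries, while Pcdha10 and Pcdha11 have counts and no unique annotation entry, so no length.

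In the alpha cluster Pcdhac2, a C-type isoform known for spacing serotonergic axons, stood far above the rest. It had 57.5 ± 3.51 CPM per kilobase of unshared exon, against a median of 3.76 over the alpha members outside the C type that have a length. C-type isoforms took 68.2% and 68.4% of alpha counts in the knockout libraries, against 71.2% and 70.3% in the wild type libraries. The 2 genotypes did not overlap in this share (68.3% ± 0.145 in knockout and 70.7% ± 0.665 in wild type, SD, n = 2 each), and an exact permutation of 2 against 2 libraries cannot give a two-sided p below 0.33. Among the other isoforms Pcdha5 stood at 5.67 ± 0.611 CPM per kilobase of unshared exon, close to the C-type Pcdhac1 at 5.39 ± 0.813.

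In the gamma cluster Pcdhgc4 led with 19.1 ± 1.70 CPM per kilobase of unshared exon. Pcdhgc4 is the isoform on which survival of cortical interneurons in mice is known to depend. On the same scale Pcdhga3 at 7.60 ± 1.03 and Pcdhga4 at 7.36 ± 0.795 followed and did not differ beyond their spread. Pcdhgc3 at 5.94 ± 0.549 and Pcdhga11 at 5.82 ± 0.737 came next, again within their spread; Pcdhga4 and Pcdhga11 are named after their values were seen. C-type isoforms took 39.3% and 41.8% of gamma counts in knockout and 42.9% and 39.0% in wild type, overlapping ranges. The beta genes, single-exon genes with no constant part, were more even: Pcdhb20 stood at 6.19 ± 0.313, Pcdhb17 at 5.16 ± 0.119 and Pcdhb16 at 5.10 ± 0.508 CPM per kilobase, over a beta median of 2.54.

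**Figure D2:**
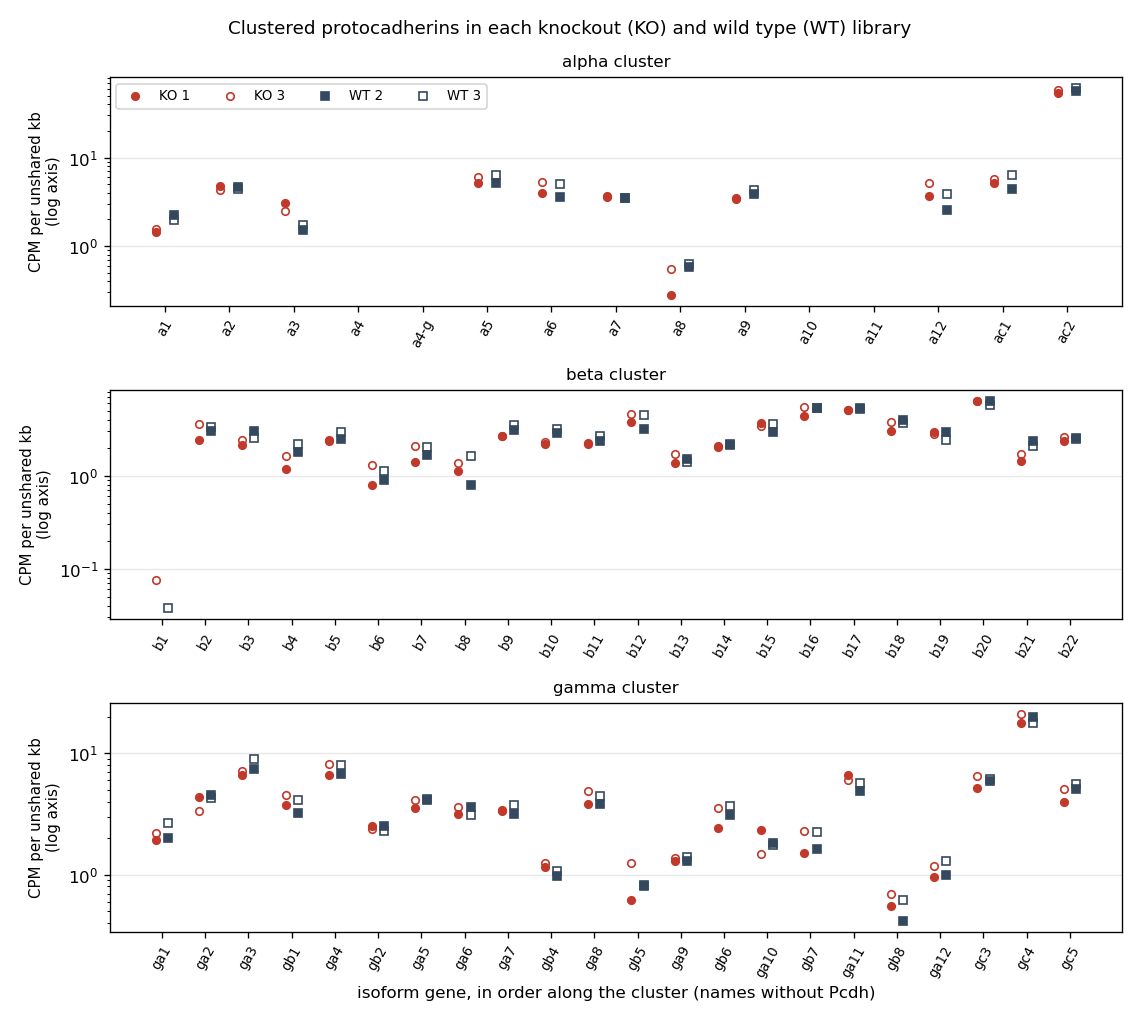
CPM per kilobase of unshared exon (log axis) of each clustered protocadherin in gene order, for knockout libraries 1 and 3 (red, left) and wild type libraries 2 and 3 (dark, right). Pcdhac2 and Pcdhgc4 lie above the other isoforms of their clusters in all 4 libraries; values of 0 and genes without a length are not drawn.

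The second comparison asked which members differed between Fxr1 knockout and wild type. No member passed an adjusted p under 0.05 among the 12449 genes tested with edgeR, where 4 genes passed (0.0321%), nor with DESeq2 or limma voom. All 89 members were tested, since all passed the filter on low counts. At an unadjusted p under 0.05, edgeR gave 7 members (7.87%), 3 higher and 4 lower in knockout, beside 3.23% of all genes. DESeq2 gave 2 members and limma voom 7, but their shares over all genes were not counted. Neither of those counts can therefore be read as an excess or a lack. The fold changes were higher in knockout for 41 members and lower for 48, and these counts turned to 46 and 43 without knockout replicate 1 and 45 and 44 without wild type replicate 3. Without knockout replicate 3 they were 27 and 62. The libraries of the genotypes did not overlap for 10 members higher in knockout (11.2%, beside 14.8% of all genes) and for 21 members lower in knockout (23.6%, beside 15.4%).

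The sizes were small. The median log2 fold change was -0.03 over the members and -0.00 over all genes, and 63 members lay within 0.2 of 0 on the log2 scale. The median of the absolute log2 fold changes was 0.116 over members and 0.0872 over all genes, with a median standard error of 0.179 for members and 0.135 for all genes. For 65 members the larger log2 difference between libraries of the same genotype exceeded the fold change. Differences between single libraries spread more than a difference between genotype means, and the larger was taken, so a high count arises by construction. The same count was not made over all genes, so it does not set the members apart. Summed over members, the level was 4127 and 4306 CPM in knockout and 4320 and 4298 CPM in wild type, overlapping.

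Fat4, the giant cadherin that receives the Dachsous signal, had 540 and 642 counts in knockout and 432 and 374 counts in wild type. These are 53.1 and 62.4 CPM in knockout and 44.6 and 36.3 CPM in wild type, so both knockout libraries stood above both wild type libraries. The mean was 57.8 ± 6.57 CPM in knockout and 40.4 ± 5.83 CPM in wild type (SD, n = 2 each). The log2 fold change was 0.52 with SE 0.11, and its p of 8.07e-05 ranked 7 among all genes, but the adjusted p was 0.143 by edgeR's quasi-likelihood test. An exact permutation test of the 4 libraries gave its smallest possible p, 0.33. The adjusted p fell to 0.00115 without knockout replicate 1 (log2 fold change 0.62), to 0.00435 without wild type replicate 2 (0.66) and to 0.00125 with no filter on low counts. In the other 8 of 11 alternatives it did not pass, and over all 11 the adjusted p ranged from 0.00115 to 1.0 in edgeR, DESeq2 and limma fits.

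Markers of several cell types moved with the genotypes or with single libraries beside Fat4. The 10 parvalbumin neuron markers summed to 9842 and 9897 CPM in knockout and 10184 and 10279 CPM in wild type, without overlap, and of the 10, 4 were lower in knockout without overlap (beside 15.4% of all genes) and 1 higher (beside 14.8%). The largest part of this sum was the interneuron enzyme gene Gad1, at 4245 and 4048 CPM in knockout and 4354 and 4295 CPM in wild type. The sum is therefore not particular to parvalbumin neurons. Of the 7 excitatory neuron markers 3 were higher in knockout without overlap and 1 lower, while their summed levels overlapped. Of 5 striatal neuron markers 4 were measured, none of these at 0 in any library, and all 4 were higher in both knockout libraries (beside 14.8% of all genes): their sum was 33.2 and 32.1 CPM in knockout and 23.9 and 24.2 CPM in wild type. Knockout replicate 3, the highest in Fat4, also had the highest sums of the 7 oligodendrocyte lineage markers, 269 and 374 CPM in knockout and 290 and 262 CPM in wild type, and of the 5 meningeal fibroblast markers, 4.52 and 12.2 CPM in knockout and 7.84 and 8.64 CPM in wild type. Knockout replicate 3 was also highest in the astrocyte, endothelial and mural, ependymal and choroid plexus, and other interneuron sums. Knockout replicate 1, second in Fat4, had the lowest astrocyte (609 CPM), endothelial and mural (11.8), meningeal fibroblast (4.52) and other interneuron (198) sums. The part of these cell types in the Fat4 values was not tested.

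Dchs1, a binding partner of Fat4, and the other Fat members did not pass the test. Dchs1 had 76.9 and 82.4 CPM in knockout and 67.2 and 77.0 CPM in wild type (log2 fold change 0.14, SE 0.09), ranges that overlapped narrowly; leaving out wild type replicate 2 gave 0.04, and leaving out wild type replicate 3 gave 0.25. Fat1, which acts in cell migration, had 37.6 and 46.5 CPM in knockout and 44.8 and 50.3 CPM in wild type (log2 fold change -0.18, SE 0.11), overlapping; it was -0.05 without knockout replicate 1 and -0.33 without knockout replicate 3. Fat3 had 240 and 257 CPM in knockout and 245 and 251 CPM in wild type, with a log2 fold change of 0.00 and SE 0.07.

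The Celsr genes also overlapped between genotypes. Celsr2 varied more between libraries of the same genotype than between genotypes, with 549 and 469 CPM in knockout and 535 and 477 CPM in wild type. Celsr3 had 52.4 and 50.3 CPM in knockout and 56.0 and 51.2 CPM in wild type, and Celsr1 had 2.46 and 1.65 CPM in knockout and 3.61 and 1.46 CPM in wild type. The log2 fold changes were 0.01 (SE 0.08) for Celsr2, -0.06 (SE 0.10) for Celsr3 and -0.29 (SE 0.41) for Celsr1, the last resting on few counts. Their signs turned with a library left out: Celsr2 was at -0.12 without knockout replicate 1, and without wild type replicate 2 Celsr3 was at 0.0015 and Celsr1 at 0.49.

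**Figure D3:**
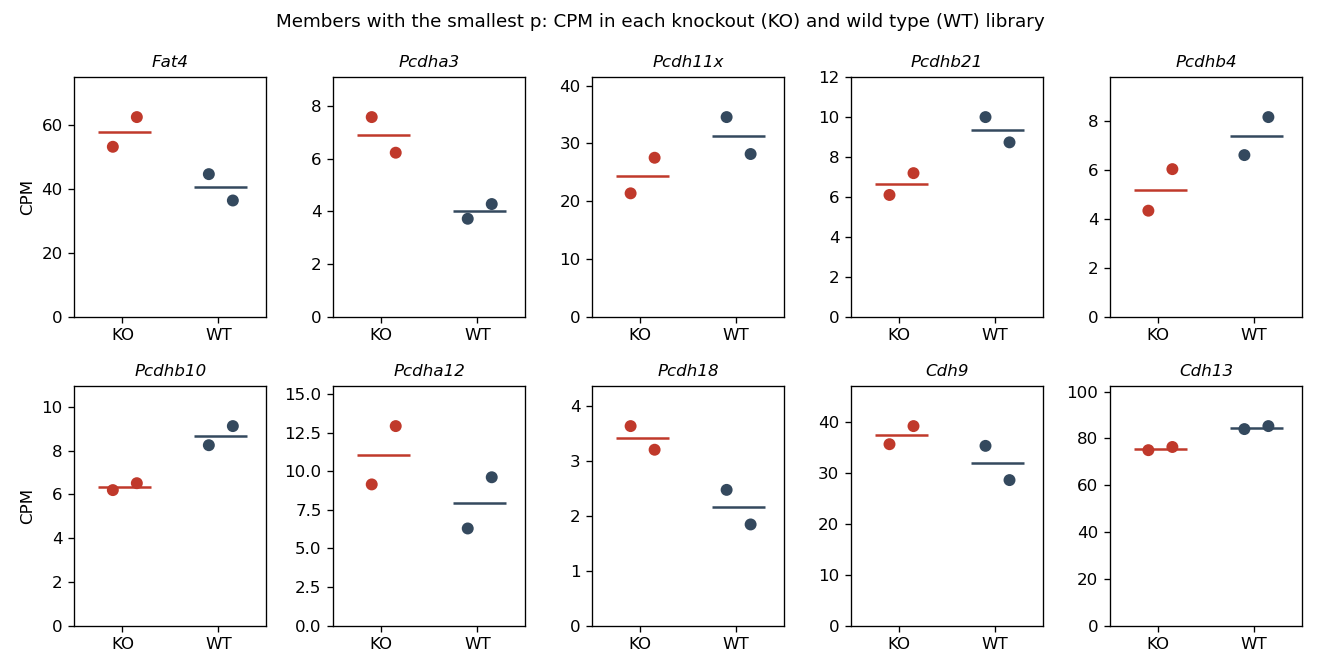
CPM of the 10 members with the smallest unadjusted p in each knockout library (red, left) and wild type library (dark, right), with lines at the means; every axis starts at 0. Fat4 has 53.1 and 62.4 CPM in knockout and 44.6 and 36.3 in wild type, and only Pcdha12 overlaps between genotypes among these 10 panels. The panels were picked by p from the same values, so their lack of overlap follows largely from the choice.

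Next to Fat4, the members with the smallest p were mostly clustered isoforms of low level. Pcdha3 had 7.57 and 6.22 CPM in knockout and 3.71 and 4.27 CPM in wild type, without overlap (log2 fold change 0.79, SE 0.24). Pcdha12 had 9.15 and 12.9 CPM in knockout and 6.29 and 9.61 CPM in wild type, with overlap (0.47, SE 0.22); leaving out wild type replicate 2 gave 0.19, and leaving out wild type replicate 3 gave 0.82. Both are alternate alpha isoforms, and 8 alpha members were higher in knockout and 5 lower. At the other end, Pcdha8, the member of lowest mean CPM without length, had 0.689 and 1.36 CPM in knockout and 1.44 and 1.55 CPM in wild type (-0.54, SE 0.49).

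In the beta cluster, 7 of 21 members were higher in knockout and 14 lower, and 9 were lower without overlap (beside 15.4% of all genes) while none was higher without overlap. Pcdhb21 had 6.10 and 7.19 CPM in knockout and 10.004 and 8.74 CPM in wild type (log2 fold change -0.49, SE 0.20). Pcdhb4 had 4.33 and 6.03 CPM in knockout and 6.60 and 8.15 CPM in wild type (-0.51, SE 0.23), and Pcdhb10 had 6.20 and 6.51 CPM in knockout and 8.25 and 9.13 CPM in wild type (-0.45, SE 0.20). The Pcdhb4 fold change was -0.31 without knockout replicate 1 and -0.76 without knockout replicate 3. The 14 to 7 count rested on knockout replicate 1: without it, 11 beta members were higher and 10 lower, without knockout replicate 3, 3 were higher and 18 lower, and without wild type replicate 2, 4 were higher and 17 lower. The summed beta level was 234 and 259 CPM in knockout and 259 and 265 CPM in wild type. The gamma members divided evenly, 11 higher and 11 lower, with log2 fold changes between -0.25 and 0.27.

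Among solitary protocadherins, Pcdh11x had 21.3 and 27.5 CPM in knockout and 34.5 and 28.2 CPM in wild type, without overlap but with one library of each genotype nearly equal (log2 fold change -0.36, SE 0.13). It was -0.20 without knockout replicate 1 and -0.54 without knockout replicate 3. Pcdh18, near Fxr1 like Fat4, had 3.64 and 3.21 CPM in knockout and 2.48 and 1.84 CPM in wild type (0.67, SE 0.33). Pcdh10, between Fat4 and Pcdh18, had 522 and 526 CPM in knockout and 567 and 529 CPM in wild type (-0.06, SE 0.07). The 3 neighbours of Fxr1 thus had log2 fold changes of 0.52, -0.06 and 0.67 with distance, and none passed the adjusted test. Pcdh8 spread widely within both genotypes, at 43.3 and 29.5 CPM in knockout and 39.4 and 24.9 CPM in wild type (0.19, SE 0.37).

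Of the classical cadherins, Cdh9, known for matching hippocampal synapses, had 35.7 and 39.3 CPM in knockout and 35.4 and 28.6 CPM in wild type (log2 fold change 0.23, SE 0.12). Leaving out wild type replicate 3 gave 0.09, and leaving out wild type replicate 2 gave 0.38. Cdh13 had 74.9 and 76.3 CPM in knockout and 84.0 and 85.2 CPM in wild type (-0.16, SE 0.09), the pairs lying apart with little spread. Cdh2 had 83.4 and 94.3 CPM in knockout and 97.3 and 97.0 CPM in wild type (-0.13, SE 0.09). Type II members were higher in knockout for 5 and lower for 7. The adjusted p of Pcdha3, Pcdh11x, Pcdhb21, Pcdhb4, Pcdhb10, Pcdha12, Pcdh18, Cdh9 and Cdh13 was 0.998 by edgeR's quasi-likelihood test.

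**Figure D4:**
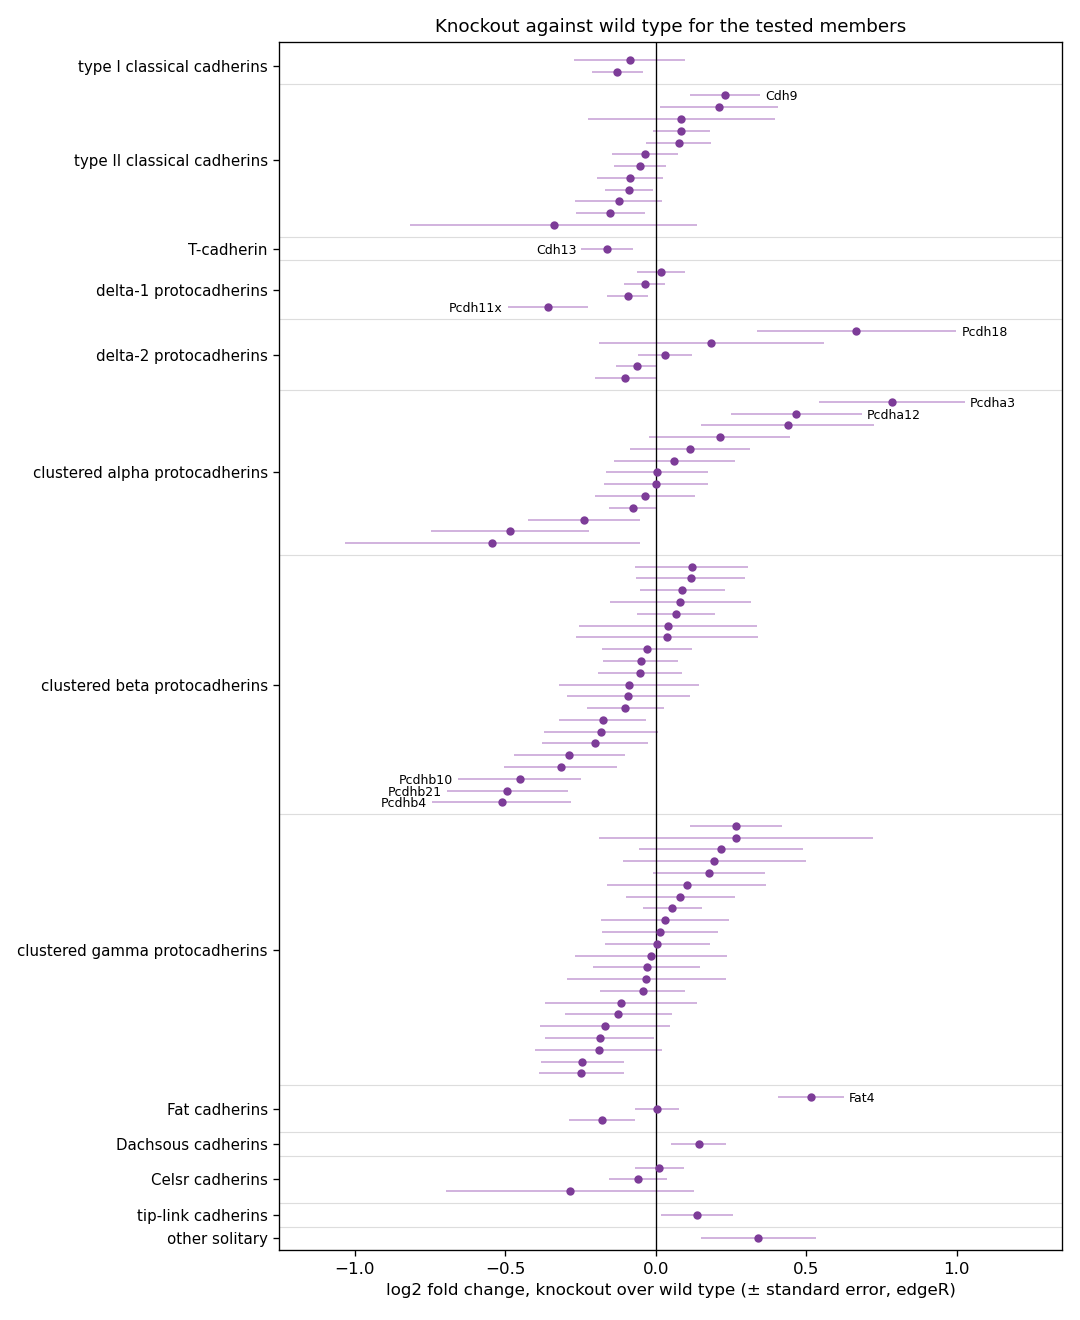
Log2 fold change of knockout over wild type (bars ± standard error, edgeR) for the 89 members by subfamily, with the 10 of smallest p named. Fat4 at 0.52 has a shorter bar than Pcdha3 at 0.79 or Pcdh18 at 0.67.

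Genes that act with cadherins gave no call in either direction. Of 16 catenins and junction linkers 12 were tested, 7 higher and 5 lower in knockout (median log2 fold change 0.05). The catenin inhibitor gene Ctnnbip1 had 30.5 and 29.3 CPM in knockout and 27.4 and 24.2 CPM in wild type, and Arvcf, a p120-type catenin, 22.0 and 20.99 CPM in knockout and 19.0 and 17.7 CPM in wild type. Of 25 Hippo pathway genes 22 were tested, 12 higher and 10 lower (median 0.02). Over all the lists of this and the next paragraph, 1 gene was under an unadjusted p of 0.05 in edgeR. As 3.23% of all genes were under it, this count does not set the lists apart. That gene, the Hippo activator gene Nf2, had 60.9 and 58.8 CPM in knockout and 50.3 and 48.6 CPM in wild type. Amot, which binds the Hippo effector Yap, had 8.75 and 6.61 CPM in knockout and 7.12 and 4.27 CPM in wild type.

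Of 19 planar polarity genes 14 were tested, 6 higher and 8 lower (median log2 fold change -0.01); Dvl3 had 133 and 128 CPM in knockout and 120 and 115 CPM in wild type, and Scrib 39.8 and 38.1 CPM in knockout and 35.2 and 37.8 CPM in wild type. Of 17 genes for choosing protocadherin promoters 14 were tested, 5 higher and 9 lower (median -0.01); Zfp143 had 15.5 and 13.5 CPM in knockout and 12.5 and 12.1 CPM in wild type, and the DNA methyltransferase gene Dnmt3a 123 and 131 CPM in knockout and 124 and 120 CPM in wild type. All 15 WAVE complex genes and protocadherin partners were tested, 9 higher and 6 lower (median 0.01); Wasf2 had 5.11 and 3.01 CPM in knockout and 6.29 and 5.15 CPM in wild type, and Abi1 46.1 and 52.4 CPM in knockout and 42.3 and 44.7 CPM in wild type. Of 15 other genes with cadherin repeats 5 were tested, all 5 lower in knockout (median -0.11), where 50.4% of all genes were lower. The count for this list was not repeated with a library left out. The receptor gene Ret, with the smallest p of the 5, had 22.5 and 31.2 CPM in knockout and 34.8 and 30.2 CPM in wild type, with overlap. Clstn3, a calsyntenin of synapses, had 1091 and 1174 CPM in knockout and 1222 and 1216 CPM in wild type.

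The 13 symbols below the minimum were Cdh1, Cdh3, Cdh15, Cdh16, Cdh17, Cdh23, Cdh24, Cdh26, Fat2, Pcdh12, Pcdha4, Pcdha4-g and Pcdhb1. Nearest to it was Cdh24, with 0.787 and 0.486 CPM in knockout and 1.65 and 0.583 CPM in wild type, while Pcdha8 and Cdh5 stood just inside. Several of these genes are known from other tissues: Cdh1 is the cadherin of epithelia, Cdh15 that of muscle, and Fat2 is expressed in cerebellar granule cells.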

How the data were processed

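RNA pulled down with tagged ribosomes was extracted and made into libraries with a SMARTer stranded total RNA kit, per the labels' protocols. The alignment used STAR and mm10, per the submitters' processing notes. Its version, the counting tool, the annotation and the strand setting: not given in the sources used here. The authors deposited unnormalized counts by gene symbol for 23306 rows, of which 27 carried date-like symbols and 4 repeated ones, which were kept.

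A column was used where its name matched a single sample's title, which held for 4. The title of wild type replicate 1 heads both of the 2 columns not used, so knockout replicate 2 and wild type replicate 1 were not analysed here. The design had foreseen all libraries, and the comparison is 2 against 2. Replicate numbers follow accession order and pair no samples. No pair of libraries agreed within sampling noise (chi-square per degree of freedom from 3.02 to 6.35, highest between the 2 knockout libraries).

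CPM used library totals. The test was edgeR 4.0.16 under R 4.3.3 on the counts (TMM, filterByExpr, robust quasi-likelihood fit, Benjamini-Hochberg over 12449 genes, threshold 0.05), checked on simulated data; mitochondrially encoded genes were not tested. DESeq2 1.42.0, limma 3.58.1 voom, size factors, library totals, other filters, a non-robust fit, a threshold of 0.1 and each library left out were alternatives. Positions and lengths are from GENCODE M21 by symbol (87 of 89 members). Genes named were all Fat, Dachsous and Celsr members, the 3 highest per kilobase in each other subfamily, the 10 of smallest p, those nearest the minimum, and of each further list the 2 of smallest p. Members and lists were chosen with earlier results of these data known.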

Additional observations from a re-analysis of the deposited data

How the results depend on the processing

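No paired analysis was possible because accession order alone gives the replicate numbers. The number of genes called was 4 and became 2 with the DESeq2 Wald test, 1 with library totals and 13 with no filter on low counts, where 1 member, Fat4, passed as higher (log2 fold change 0.52). With each library left out, the genes called ranged from 9 to 48, the members called higher from 0 to 1, the Fat4 log2 fold change from 0.38 to 0.66, and the median over members from -0.084 to 0.015; those fits let the lone library take its spread from the other genotype's pair. Signs turned for Fat3 (-0.030 to 0.037), Celsr1 (-0.80 to 0.49), Celsr2 (-0.12 to 0.13) and Celsr3 (-0.11 to 0.0015) over those fits. The median over members was 0.015 without knockout replicate 1 and 0.0009 without wild type replicate 3. The other 156 values of 15 named genes kept their direction and their side of the threshold, but leaving out 1 library moved the log2 fold change by over 1.5 times for Pcdha12 (0.19 to 0.82), Cdh9 (0.09 to 0.38), Pcdh11x (-0.54 to -0.20), Pcdhb4 (-0.76 to -0.31), Fat1 (-0.33 to -0.05) and Dchs1 (0.04 to 0.25). Class shares with the longest transcript were 35.9% for delta, 25.7% for clustered, 24.9% for classical and T, 8.44% for Celsr, 4.22% for Fat and Dachsous, and 0.830% for other members. As CPM without length they were 41.4%, 18.6%, 16.0%, 13.2%, 9.81% and 0.951% in the same order. Per unshared exon, a length chosen after seeing the data, they were 29.1%, 41.2%, 16.8%, 8.26%, 4.09% and 0.504%. The cause of these shifts was not tested. The depth and 2 libraries a genotype gave a median standard error of 0.179 for the log2 fold changes of members.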
